A study of Mus musculus with 6 samples.

Results

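The capillary endothelial nuclei described here were the 5889, of 48438 nuclei kept, in which UMIs of Car4, Kit, Gabrb2, Ablim3 and Cyp4b1 led over those of the other endothelial gene sets. Capillary endothelial cells line the smallest vessels of the heart muscle, where oxygen, glucose and fatty acids pass from blood to cardiomyocytes. In the heart most endothelial cells are capillary, and arterial, venous, endocardial and lymphatic endothelium make up the rest. Carbonic anhydrase 4 (Car4), an enzyme anchored on the outer face of the capillary membrane that interconverts carbon dioxide and bicarbonate, and Kit, the receptor for stem cell factor, are both known from capillary endothelium.

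All nuclei were taken from left ventricle of males that were 12 weeks old. The WT-CD group held wild-type littermates fed a control diet. The R403Q-CD group had the genotype given by the labels as Myh6+/R404Q (R403Q), a heterozygous change in a cardiac myosin heavy chain, and was fed that control diet. The R403Q-EMPA group had the same genotype, and its feed held empagliflozin, an inhibitor of the sodium-glucose cotransporter 2, at 0.15 mg/g, or roughly 15 mg/kg. Feeding of these diets started when mice were 9 to 10 weeks old. By the methods, mice taken for RNA sequencing had been fed for 2 weeks, which matches these ages, although the labels name the full treatment period of 16 weeks. Each group had 2 single-nucleus RNA sequencing libraries. The mutated gene encodes a cardiomyocyte protein, so the endothelial nuclei are those of a heart with a mutant muscle protein. The labels do not say that the libraries of a group came from separate animals, so p-values measure the spread between these libraries, which may be technical.

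A nucleus was chosen in 2 steps. It first had to hold at least 3 unique molecular identifiers (UMIs) of the pan-endothelial genes Flt1, Pecam1, Cdh5 and Ptprb, with at most 1 UMI each of the endocardial (Npr3, Nrg1, Smoc1), lymphatic (Mmrn1, Reln) and mural or stromal (Pdgfra, Rgs5) sums and under 1% of its UMIs from the cardiomyocyte genes Ttn, Ryr2 and Myh6. It then needed at least 2 UMIs of Car4, Kit, Gabrb2, Ablim3 and Cyp4b1 together, and more of these than of either Vegfc, Alk, Kirrel3, Col13a1 and Ptprr or Adam23, Nr5a2, Alox12, Cxcl12 and Sox17. The values of these genes chose the members, so they are given as description without a test. Of 48438 nuclei kept, 13254 passed the endothelial step and 5889 were chosen as capillary. WT-CD gave 640 and 1091 of these nuclei, R403Q-CD gave 1299 and 1164, and R403Q-EMPA gave 1081 and 614. The same comparison of sums gave 4168 nuclei led by the Vegfc set and 1223 led by the Sox17 set, called Vegfc/Alk and Sox17/Cxcl12 nuclei below, and 1974 endothelial nuclei led by no set.

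The capillary nuclei gave 1373581 to 4102091 UMIs per library, with medians of 2075.5 to 3362 UMIs per nucleus. R403Q-EMPA replicate 2 had the smallest sum and the shallowest nuclei. A doublet caller marked 1.47% to 6.56% of them, and pairs of libraries shared 23 to 56 barcodes over all nuclei, with 1 barcode of a capillary nucleus in more than 1 library. Summed marker genes of other cell types were all detected in the capillary nuclei. The 15 cardiomyocyte markers summed to 2197 to 3430 counts per 1000000 UMIs (CPM) in WT-CD, 3522 to 3548 CPM in R403Q-CD and 3799 to 3819 CPM in R403Q-EMPA. The 14 fibroblast markers summed to 674 to 1444 CPM, 570 to 690 CPM and 622 to 643 CPM, and the 14 myeloid and lymphoid markers to 348 to 602 CPM, 271 to 301 CPM and 137 to 234 CPM in the same order. WT-CD replicate 1 was the highest library for the fibroblast and immune sums, and the immune sum was lowest in both R403Q-EMPA libraries. None of these markers was at 0 in every library, and their part in the results was not tested except where a value without cardiomyocyte UMIs is given.

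The shares of nuclei with the 5 genes were fixed by the selection, so they describe the population and do not bear on its name. Ablim3, an actin-binding LIM protein, was detected in 95.9% to 98.3% of the capillary nuclei per library and carried most of the selection. Cyp4b1, a cytochrome P450 that hydroxylates fatty acids and other substrates, was detected in 33.8% to 39.0%, and Car4 in 27.3% to 37.9%. Gabrb2, a subunit of the GABA-A receptor, was detected in 7.86% to 21.9%, with the lowest value in R403Q-EMPA replicate 1, and Kit in 10.4% to 18.9%. In nuclei that failed the endothelial step, with deeper medians of 2922 to 4513 UMIs, Car4 was detected in 0.73% to 1.83%, Kit in 0.621% to 1.48% and Ablim3 in 6.69% to 12.3%. Car4 and Kit were detected together in 2.41% to 4.04% of the capillary nuclei, at a depth where a nucleus without a UMI can still express the gene. Between 26.9% and 39.9% of its nuclei held UMIs of just 1 of the 5 genes. Ablim3 was also detected in 42.1% to 60.9% of Vegfc/Alk nuclei, so its level rather than its presence separated these classes. Just inside the threshold, with 2 UMIs of the 5 genes, lay 56 to 96 chosen nuclei per library, and just outside it, with 1 UMI, lay 195 to 492 endothelial nuclei.

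**Figure D1:**
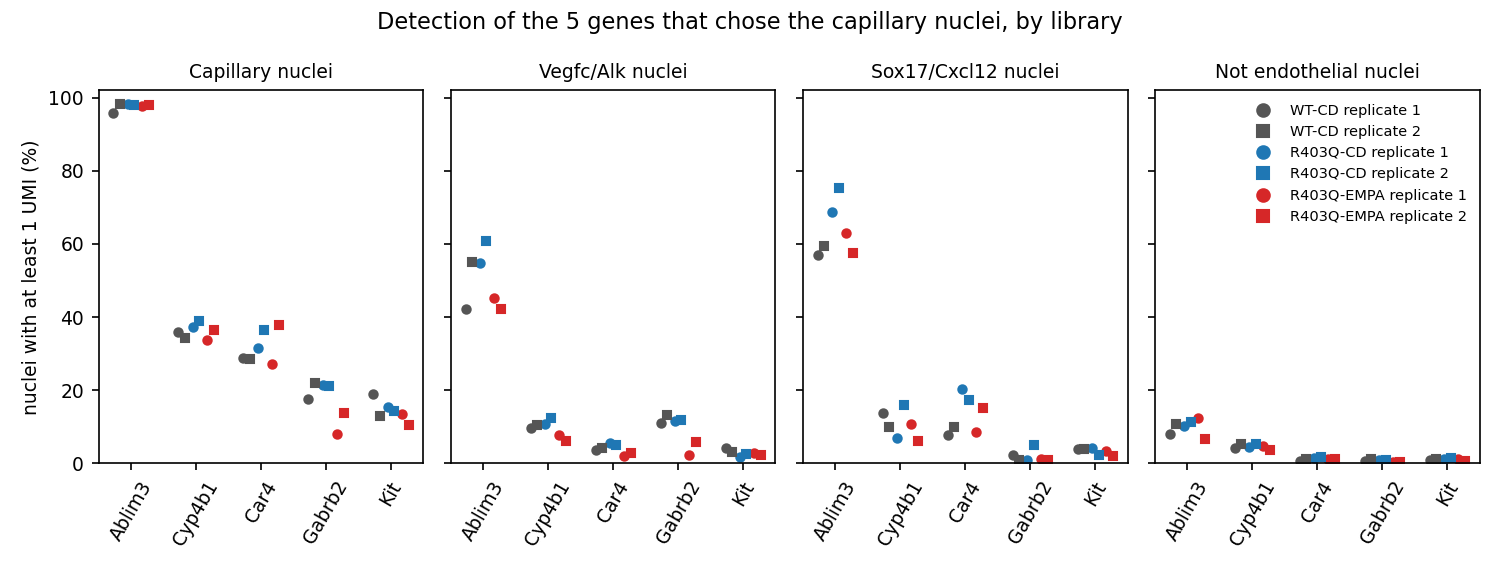
Share of nuclei with at least 1 UMI (percent) of each of the 5 genes that chose the capillary nuclei, in capillary, Vegfc/Alk, Sox17/Cxcl12 and not endothelial nuclei; each point is 1 library, coloured by group, with circles and squares for replicates 1 and 2. Ablim3 lies at 95.9% to 98.3% in capillary nuclei and is common in the other endothelial classes, while Car4 and Kit stay under 2% in nuclei outside the endothelium.

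Genes that the selection did not use described the capillary nuclei further, as log2 ratios of unscaled CPM (plus 1) within each of the 6 libraries, without a test, because the classes were cut from the same nuclei. Against Vegfc/Alk nuclei, 7293 genes were abundant enough to compare, of which 1149 were higher in all 6 libraries and 1506 lower. The highest mean ratio was that of Slc1a1, a glutamate and aspartate transporter, at 3.58 to 4.98 across libraries, from 30.6 to 53.8 CPM in capillary nuclei against 0 to 2.99 CPM. Dlg2, a scaffold protein of membrane junctions, was higher by 2.75 to 3.90, Prdm1, a transcriptional repressor, by 2.72 to 3.68, and Myo10, an unconventional myosin of filopodia, by 2.16 to 3.33. Unc5b, a netrin receptor of endothelium, was higher by 2.10 to 3.05, Meox1, a homeobox factor, by 2.06 to 3.99, and Btnl9, a butyrophilin-like surface protein, by 2.28 to 2.86. The rest of the 12 highest were the RNA genes F730043M19Rik, Gm39465 and Gm12002 with Papln and Grap, at ratios of at least 2.03 in every library.

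The genes that were lower in capillary than in Vegfc/Alk nuclei included venous and secreted-factor genes. Wnt9b, a Wnt ligand, was lower by 3.57 to 5.50 on the log2 scale, and Ret, a receptor tyrosine kinase, by 3.85 to 5.03. Stc1, a secreted glycoprotein of calcium and phosphate handling, Il33, an alarmin cytokine, and Igfbp5, an insulin-like growth factor binding protein, were among the 12 lowest as well, with Igfbp5 at 19.1 to 88.9 CPM against 289.9 to 1516 CPM. Nt5e, the ectoenzyme that makes adenosine, had ratios of -4.55 to -3.15, and Ankdd1b, Adamtsl1, Frmd5, Zbtb7c, Prss23 and G630055G22Rik completed the 12 lowest. Of 10 venous markers that could be compared, 10 were lower in all 6 libraries, with a median mean ratio of -1.94 against -0.04 over all genes. Vwf, the clotting factor carrier of larger vessels, had ratios of -4.34 to -2.75, and Nr2f2, a transcription factor of venous identity, had ratios of -3.49 to -2.36. Of 16 genes in the flow and nitric oxide list, 11 were lower in all 6 libraries, among them the shear-responsive factors Klf2 (-1.01 to -0.77) and Klf4 (-1.50 to -1.13) and the nitric oxide synthase Nos3 (-0.84 to -0.57).

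Several genes of capillary function stood higher in the chosen nuclei than in Vegfc/Alk nuclei. Of 16 capillary markers that could be compared, 9 were higher and 3 lower in all 6 libraries, beside 1149 higher and 1506 lower of all 7293 genes. Against Sox17/Cxcl12 nuclei 7 of these markers were higher and 2 lower, beside 540 and 475 of all 7202 genes. Kdr, the main VEGF receptor, had log2 ratios of 1.30 to 1.64, and Lpl, the lipase that releases fatty acids from lipoproteins, 0.99 to 1.64. Cd36, a fatty acid transporter, had ratios of 0.41 to 1.00, and Gpihbp1, which anchors Lpl on the capillary wall, 0.07 to 0.85. Col4a1, a collagen of the basement membrane, had ratios of 0.92 to 1.40, and Dll4, a Notch ligand, 1.53 to 2.00. Fabp4, a fatty acid binding protein, ranged from -0.56 to 0.14 and so did not separate the classes. Of 17 fatty acid genes that could be compared, 9 were higher and 2 lower in all 6 libraries, and of 20 basement membrane and integrin genes 12 were higher and 6 lower. Of 12 cardiomyocyte markers, 10 were also higher in all 6 libraries, with a median mean ratio of 0.34, so capillary nuclei carried more cardiomyocyte RNA than Vegfc/Alk nuclei did, and its part in these ratios was not tested.

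Against Sox17/Cxcl12 nuclei fewer genes differed in all 6 libraries. Of 7202 genes compared, 540 were higher and 475 lower in all 6 libraries. Tll1, a tolloid-like protease, was higher in capillary nuclei by 2.16 to 3.95 on the log2 scale. Adh1, an alcohol and retinol dehydrogenase, was higher by 0.90 to 2.51, and Angpt2, a ligand of the receptor Tek, by 1.03 to 1.22. Lnx1, a ubiquitin ligase, stood at 157 to 292 CPM against 40.8 to 143 CPM, and Stxbp6, a syntaxin-binding protein, at 478 to 811 CPM against 99.6 to 418 CPM. Of 12 arterial markers, 9 were lower in all 6 libraries, with a median mean ratio of -1.82. Jag1, a Notch ligand of arteries, had ratios of -2.63 to -1.53, Sema3g, a semaphorin of arterial endothelium, -3.56 to -1.50, and Edn1, the vasoconstrictor endothelin 1, -3.20 to -1.53. Nebl, an actin-binding nebulin relative, stood at 19.3 to 123 CPM in capillary nuclei against 312 to 1305 CPM, and Chrm3, a muscarinic acetylcholine receptor, at 2.55 to 16.2 CPM against 65.4 to 232 CPM. The Sox17/Cxcl12 nuclei came to 637 in R403Q-EMPA replicate 1 and to 99 to 138 in the other libraries, so the ratios rest on few nuclei outside that library.

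**Figure D2:**
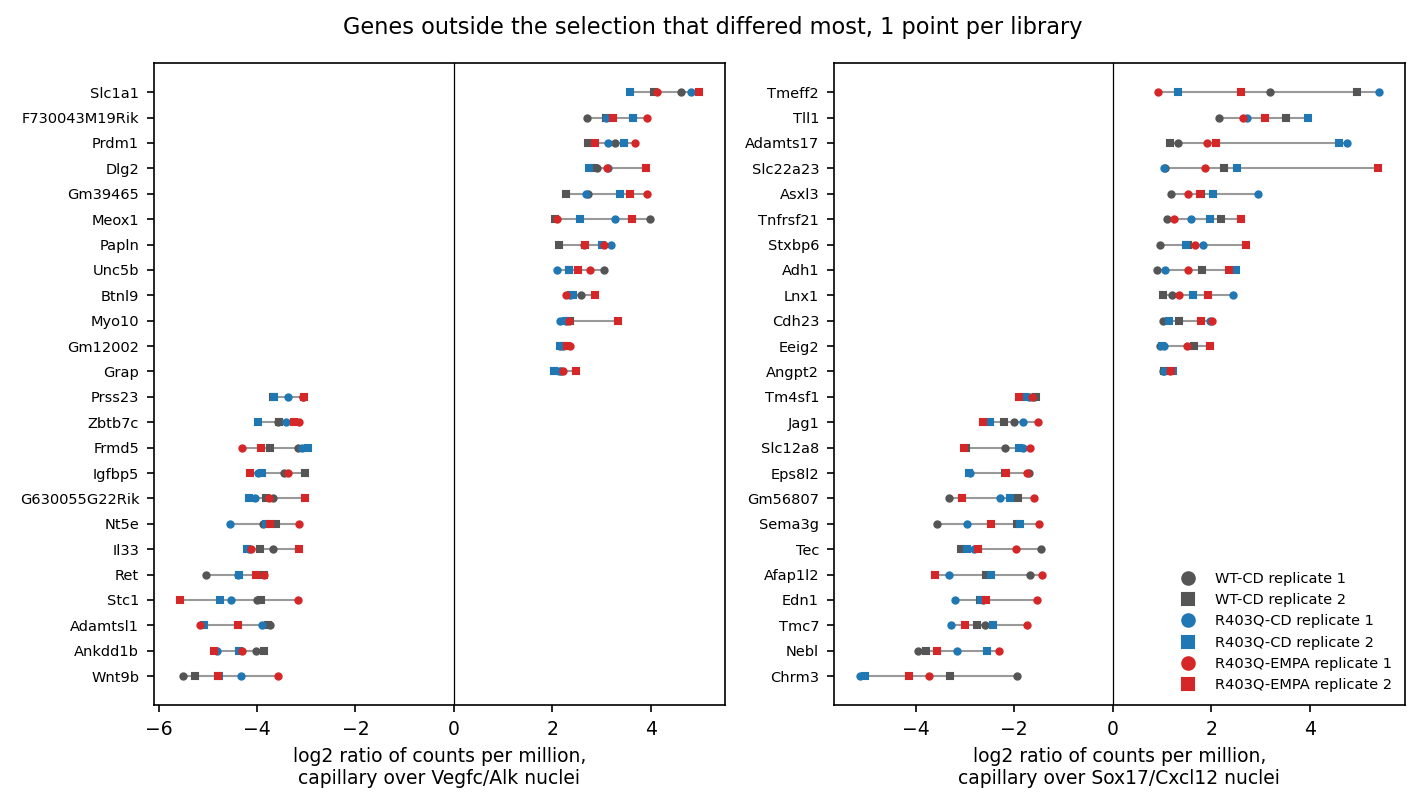
Log2 ratio of CPM in capillary nuclei over Vegfc/Alk nuclei (left) and over Sox17/Cxcl12 nuclei (right) for the 12 highest and 12 lowest genes outside the selection; each point is 1 library and the grey line spans the 6 libraries. Slc1a1 heads the left panel at 3.58 to 4.98, and every gene shown keeps its sign in all 6 libraries.

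Some of these genes stood higher along the selection itself, which is a description, since genes of a class that this sum defined were largely bound to do so. After each endothelial nucleus was thinned to 1000 UMIs, the median level of Slc1a1 over the 6 libraries was 5.85 CPM in nuclei with no UMI of the 5 genes, 14.2 CPM with 1, 28.2 CPM with 2 and 50.5 CPM with 3 or more. Dlg2 stood at 165, 353, 547 and 614 CPM over the same steps, and Kdr at 309.8, 449.8, 533 and 569 CPM. Meox2, a homeobox factor of heart endothelium, stood at 292, 291, 263 and 273 CPM, so it showed no such order. Stxbp6, at 645, 643, 723 and 648 CPM, and Papln, at 25.1, 35.6, 47.9 and 44.2 CPM, did not follow it throughout either.

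The share of endothelial nuclei chosen as capillary was highest in R403Q-CD. WT-CD libraries had 35.3% and 45.2% (40.2% ± 6.97, SD, n = 2), R403Q-CD libraries 55.5% and 55.2% (55.3% ± 0.193) and R403Q-EMPA libraries 34.4% and 42.8% (38.6% ± 5.93). Both R403Q-CD libraries lay above the other 4. R403Q-CD exceeded WT-CD by 15.1 percentage points and R403Q-EMPA lay 16.7 points below R403Q-CD, each with p = 0.333 in a two-sided exact permutation test, which is the smallest p that 2 libraries against 2 can give. R403Q-EMPA and WT-CD overlapped (exact permutation p = 0.667). A share also moves with the other classes. R403Q-EMPA replicate 1 held 637 Sox17/Cxcl12 and 588 unassigned endothelial nuclei, against 99 to 138 and 229 to 316 in the other libraries, and its 1081 capillary nuclei lay near the 1299 and 1164 of R403Q-CD, while R403Q-EMPA replicate 2 held 614. The order held after thinning every nucleus to 1000 UMIs, at group means of 27.4%, 39.7% and 26.0%, and, in a setting added after the data were seen, with Ablim3 left out of the selection, at 14.0%, 21.0% and 11.6%. In nuclei without any UMI of Ttn, Ryr2 or Myh6 the means were 39.4%, 47.7% and 39.6%, which leaves R403Q-CD 8.31 points above WT-CD. Of all nuclei kept, the WT-CD libraries had 6.29% and 13.6% capillary, the R403Q-CD libraries 16.4% and 15.9%, and the R403Q-EMPA libraries 13.1% and 9.09%. In nuclei without cardiomyocyte UMIs the group means of this share were 10.4%, 15.8% and 14.9%, and R403Q-EMPA, 0.973 points below R403Q-CD, overlapped with it.

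**Figure D3:**
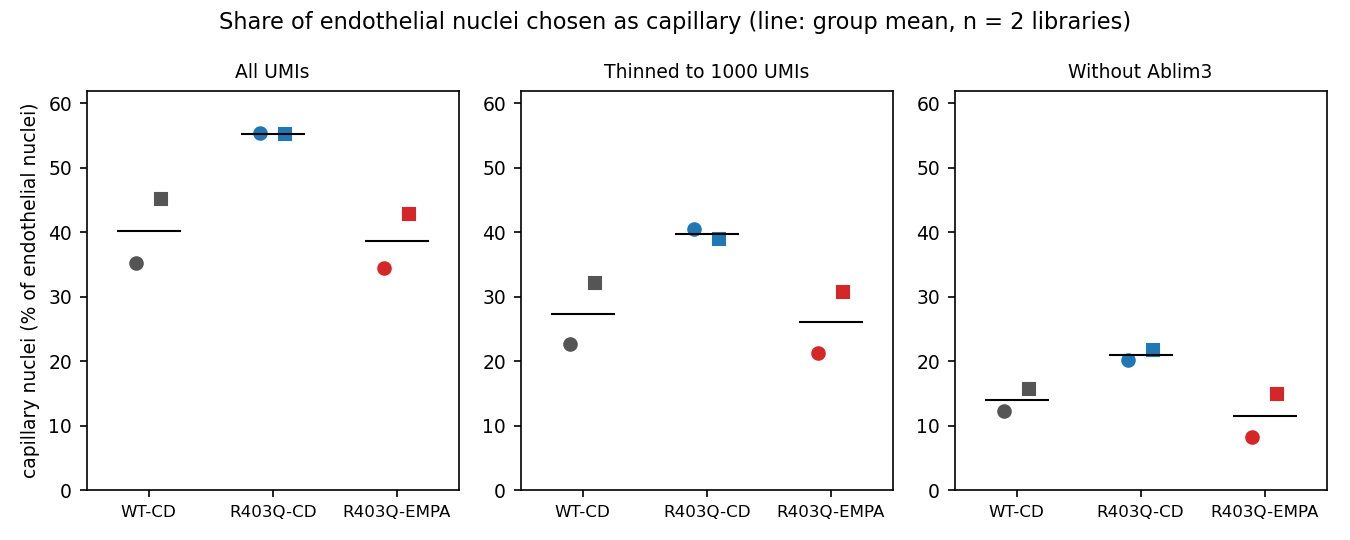
Capillary nuclei as a percent of endothelial nuclei in each library, with all UMIs, after thinning each nucleus to 1000 UMIs, and with Ablim3 left out of the selection; points are libraries and lines are group means of 2. The 2 R403Q-CD libraries lie above the other 4 in each panel.

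A share chosen by expression also moves with the expression of the choosing genes, so these were measured over all 13254 endothelial nuclei. Ablim3 was at 756 and 1174 CPM (WT-CD), 1470.5 and 1427 CPM (R403Q-CD) and 813 and 1026 CPM (R403Q-EMPA). Car4 was at 54.7 and 121 CPM in R403Q-EMPA, 109.6 and 115 CPM in R403Q-CD and 67.0 and 71.4 CPM in WT-CD, with the R403Q-EMPA libraries on either side of the control-diet libraries. Gabrb2 was at 77.7 and 118 CPM in WT-CD, 128 and 142 CPM in R403Q-CD, and 21.5 and 64.8 CPM in R403Q-EMPA, and both R403Q-EMPA libraries were the lowest of the 6. Kit was at 52.9 and 39.6 CPM (WT-CD), 54.0 and 43.5 CPM (R403Q-CD) and 28.8 and 32.0 CPM (R403Q-EMPA), again lowest in R403Q-EMPA. Cyp4b1 was at 104 and 118 CPM (WT-CD), 148 and 139 CPM (R403Q-CD) and 85.3 and 119 CPM (R403Q-EMPA). The genes of the compared sums shifted too. Vegfc was at 798 and 868 CPM (WT-CD), 637 and 633 CPM (R403Q-CD) and 427 and 546 CPM (R403Q-EMPA). Kirrel3 was at 1008 and 1407 CPM, 918 and 901 CPM, and 282 and 518 CPM in the same order. Ptprr was also lower in both R403Q-CD libraries than in WT-CD, while Adam23, Alox12, Nr5a2 and Sox17 were higher. Alk, Col13a1 and Cxcl12 overlapped. More capillary nuclei, more capillary-gene transcripts per nucleus and shifts in the compared genes cannot be told apart with this selection.

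Within the capillary nuclei, R403Q-CD was compared with WT-CD for the effect of the mutation on the control diet. None of 12824 genes tested passed (0% of genes, edgeR's quasi-likelihood test, adjusted p under 0.05), while 504 genes had an unadjusted p under 0.05 (3.93% of genes). DESeq2 made 6 calls. Levels are given for the 8 genes that ranked first by p, except Hba-a1, Hba-a2 and Hbb-bt. Cyp26b1, the enzyme that breaks down retinoic acid, was at 5.92 and 10.3 CPM in R403Q-EMPA, 8.80 and 16.4 CPM in R403Q-CD and 67.4 and 47.4 CPM in WT-CD (log2 fold change -2.16, SE 0.30, adjusted p = 0.17 for R403Q-CD against WT-CD). All 4 libraries with the mutation lay below both WT-CD libraries. Cyp26b1 passed for R403Q-CD against WT-CD with DESeq2, and when WT-CD replicate 1, WT-CD replicate 2 or R403Q-EMPA replicate 2 was left out of the fit.

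Globin transcripts formed the larger part of the other 7 genes. Hbb-bs, the adult beta globin chain, was at 334 and 241 CPM in WT-CD, 597 and 845 CPM in R403Q-CD, and 452 and 295 CPM in R403Q-EMPA (adjusted p = 0.22 for R403Q-CD against WT-CD). Hba-a1, Hba-a2 and Hbb-bt did not pass either, with adjusted p of 0.22, 0.21 and 0.17, and DESeq2 called all 4 globin genes. In nuclei that were not endothelial, unscaled Hbb-bs was at 423 and 254 CPM (WT-CD), 604 and 1291 CPM (R403Q-CD) and 217 and 102 CPM (R403Q-EMPA), so globin RNA was higher in R403Q-CD outside the endothelium too, and its part was not tested. Ptgds, which makes prostaglandin D2 and carries lipophilic molecules, was at 51.0 and 42.1 CPM in R403Q-EMPA, 38.8 and 33.0 CPM in R403Q-CD and 17.9 and 11.04 CPM in WT-CD. Sgcd, a sarcoglycan of muscle membranes, was at 139.7 and 125 CPM in WT-CD, 61.1 and 53.9 CPM in R403Q-CD, and 35.5 and 56.1 CPM in R403Q-EMPA, and Ank2, an ankyrin that anchors ion channels, was at 82.4 and 72.5 CPM (WT-CD), 40.6 and 40.0 CPM (R403Q-CD) and 33.8 and 28.1 CPM (R403Q-EMPA). Both Sgcd and Ank2 are abundant cardiomyocyte transcripts, and Sgcd reached 1214 to 1872 unscaled CPM in nuclei that were not endothelial. After predicted doublets were removed, the log2 fold change of Sgcd turned to 0.0248.

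Empagliflozin in the mutant was examined by comparing R403Q-EMPA with R403Q-CD. Of 12824 genes, 57 passed (0.444% of genes), 42 higher (0.328%) and 15 lower (0.117%), and 9.54% of genes had an unadjusted p under 0.05. Against WT-CD, which shares the R403Q-EMPA libraries with that comparison, 146 genes passed (1.14%), 83 higher (0.647%) and 63 lower (0.491%), and 13.4% had an unadjusted p under 0.05. The lists had 46 genes in common, 80.7% of the first list and 31.5% of the second, which is no independent support because the treated libraries are the same. The first count fell to 10 without R403Q-CD replicate 2, to 23 without R403Q-CD replicate 1 and to 21 without R403Q-EMPA replicate 1, and rose to 116 without R403Q-EMPA replicate 2 and to 223 and 210 without WT-CD replicate 1 and WT-CD replicate 2. The second fell to 50 without R403Q-EMPA replicate 1 and rose to 427 without WT-CD replicate 1 and 255 without WT-CD replicate 2.

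Heat-shock chaperones had the most calls of the 29 gene lists. These lists were chosen with earlier results of these data known, so the rank and the list medians are description. Chaperones of the HSP70, HSP90, HSP110 and HSP40 families bind unfolded proteins in the cytosol and nucleus, and their genes are known targets of heat shock factor 1, which binds repeated copies of the pentamer NGAAN in alternating orientation. Of 25 listed chaperone and co-chaperone genes, 25 were tested. Against R403Q-CD 14 rose, with none lower, and the list's median log2 fold change was 1.38 against 0.0074 over all genes. Against WT-CD 15 rose, with a median of 1.57. Between R403Q-CD and WT-CD none was called and the median was 0.17.

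The inducible HSP70 genes Hspa1a and Hspa1b are near-identical neighbours, so reads can be split between them and each is uncertain alone. Their promoters are shown because both genes went from almost no UMI to a clear level, together with that of Hspb1, which also rose. The sequences are RefSeq's, build GRCm38.p6, the 150 bases before the annotated start, with GAANNTTC, 2 facing copies of the pentamer core, in capitals. Hspa1a (ENSMUSG00000091971) lies on the minus strand at chr17:34972157-34972306, Hspa1b (ENSMUSG00000090877) on the minus strand at chr17:34959239-34959388, and Hspb1 on the plus strand at chr5:135887769-135887918.
Hspa1a: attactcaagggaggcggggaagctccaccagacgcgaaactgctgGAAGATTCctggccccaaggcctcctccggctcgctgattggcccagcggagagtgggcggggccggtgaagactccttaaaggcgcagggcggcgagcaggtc
Hspa1b: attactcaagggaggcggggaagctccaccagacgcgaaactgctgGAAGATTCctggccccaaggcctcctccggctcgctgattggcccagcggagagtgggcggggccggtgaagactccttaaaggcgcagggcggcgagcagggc
Hspb1: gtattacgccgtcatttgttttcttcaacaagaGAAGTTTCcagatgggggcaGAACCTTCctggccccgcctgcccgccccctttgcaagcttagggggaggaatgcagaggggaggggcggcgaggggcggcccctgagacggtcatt
The Hspa1a and Hspa1b stretches matched at 149 of 150 bases (99.3%), with the motif 104 to 97 bases before the start in both. Hspb1 held it at 117 to 110 and 97 to 90 bases before its start. GAANNTTC or TTCNNGAA, each of which reads the same on both strands, was found between 250 bases before and 50 bases after the start of 8 of the 12 called chaperone genes that the promoter table held (66.7%). It was found in such windows of 5 of 9 chaperone genes tested but not called (55.6%), in 14.4% of all 9759 tested genes in the table and in 17.0% of all 27025 genes there. A match describes the letters of the window and is no evidence of binding.

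Hspa1a was at 32.7 and 53.2 CPM in R403Q-EMPA, 0.776 and 0.496 CPM in R403Q-CD and 0.597 and 0.298 CPM in WT-CD. The UMIs behind these levels numbered 188 in R403Q-EMPA, 5 in R403Q-CD and 2 in WT-CD, which gives ratios of CPM of 61.6 (95% counting interval 25.9 to 192) and 97.3 (26.6 to 809) for R403Q-EMPA over R403Q-CD and WT-CD (adjusted p = 0.00012 and 0.00024). Hspa1b was at 0.597 and 0.597 CPM in WT-CD, 0.259 and 0.248 CPM in R403Q-CD, and 23.7 and 39.2 CPM in R403Q-EMPA, from 137 UMIs in R403Q-EMPA, 2 in R403Q-CD and 3 in WT-CD, with ratios of 112 (30.5 to 936) and 47.3 (15.8 to 232) for R403Q-EMPA over R403Q-CD and WT-CD. Both R403Q-EMPA libraries stood far above the 4 control-diet libraries for each gene. In nuclei without cardiomyocyte UMIs the call of Hspa1a against R403Q-CD was lost, at a log2 fold change of 4.69 (edgeR adjusted p = 0.0705). That setting kept only 84 to 139 capillary nuclei per library and tested 5360 genes. A call lost there, for this or any other gene, therefore does not show which RNA carried it.

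Hsph1 (ENSMUSG00000029657), the HSP110 exchange factor of HSP70, was at 13.7 and 5.07 CPM (WT-CD), 12.4 and 8.69 CPM (R403Q-CD) and 155 and 156 CPM (R403Q-EMPA). It rose against R403Q-CD (log2 fold change 3.88, SE 0.27, adjusted p = 0.00011) and against WT-CD (log2 fold change 4.22, SE 0.31, adjusted p = 0.00016), and both treated libraries lay above all others. Hspa4l, a related HSP110 protein, was at 131 and 174 CPM in R403Q-EMPA, 27.7 and 27.1 CPM in R403Q-CD and 32.2 and 31.6 CPM in WT-CD (log2 fold change 2.46, SE 0.18, adjusted p = 0.00011 against R403Q-CD). Stip1, which joins HSP70 to HSP90, was at 14.9 and 13.4 CPM in WT-CD, 26.1 and 19.1 CPM in R403Q-CD, and 93.5 and 93.1 CPM in R403Q-EMPA (log2 fold change 2.04, SE 0.18, adjusted p = 0.0004 against R403Q-CD). For these 3 genes the R403Q-EMPA libraries did not overlap with the others, and the calls against both control groups held in the 15 alternatives run.

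The HSP90 genes rose too. Hsp90aa1, the inducible form, was at 39.4 and 32.8 CPM (WT-CD), 51.8 and 39.5 CPM (R403Q-CD) and 139.7 and 201 CPM (R403Q-EMPA) (log2 fold change 1.88, SE 0.21, adjusted p = 0.0022 against R403Q-CD), and Hsp90ab1, the constitutive form, at 494 and 567 CPM in R403Q-EMPA, 185 and 183 CPM in R403Q-CD and 191 and 126 CPM in WT-CD (log2 fold change 1.53, SE 0.18, adjusted p = 0.0039). Hspa8, the constitutive HSP70, was at 127 and 101 CPM in WT-CD, 138 and 149.9 CPM in R403Q-CD, and 317 and 304 CPM in R403Q-EMPA (log2 fold change 1.11, SE 0.15, adjusted p = 0.0075). Dnaja1 and Dnajb1, HSP40 partners of HSP70, rose by 1.42 and 1.36 on the log2 scale, Chordc1, Cacybp and Fkbp4, partners of HSP90 complexes, by 1.62, 1.77 and 1.38, and Hspb1, a small heat-shock protein, by 1.87. Hspd1, the mitochondrial chaperonin HSP60, passed only against WT-CD (log2 fold change 1.27, SE 0.26, adjusted p = 0.046), a call lost when any of R403Q-CD replicate 1 or 2, R403Q-EMPA replicate 1 or 2, or WT-CD replicate 2 was left out. Of the list's 14 calls against R403Q-CD, 9 held without R403Q-CD replicate 1, 5 without R403Q-CD replicate 2, 10 without R403Q-EMPA replicate 1 and 13 without R403Q-EMPA replicate 2. Without cardiomyocyte UMIs only 16 of the 25 genes could be tested, of which 9 rose. Of 21 tested genes in the list of endoplasmic reticulum chaperones, none was called against either group, with medians of 0.51 in both comparisons. However, 18 of the 21 had a log2 fold change above 0 in each comparison. The smallest edgeR adjusted p was 0.0526 against R403Q-CD and 0.0735 against WT-CD.

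**Figure D4:**
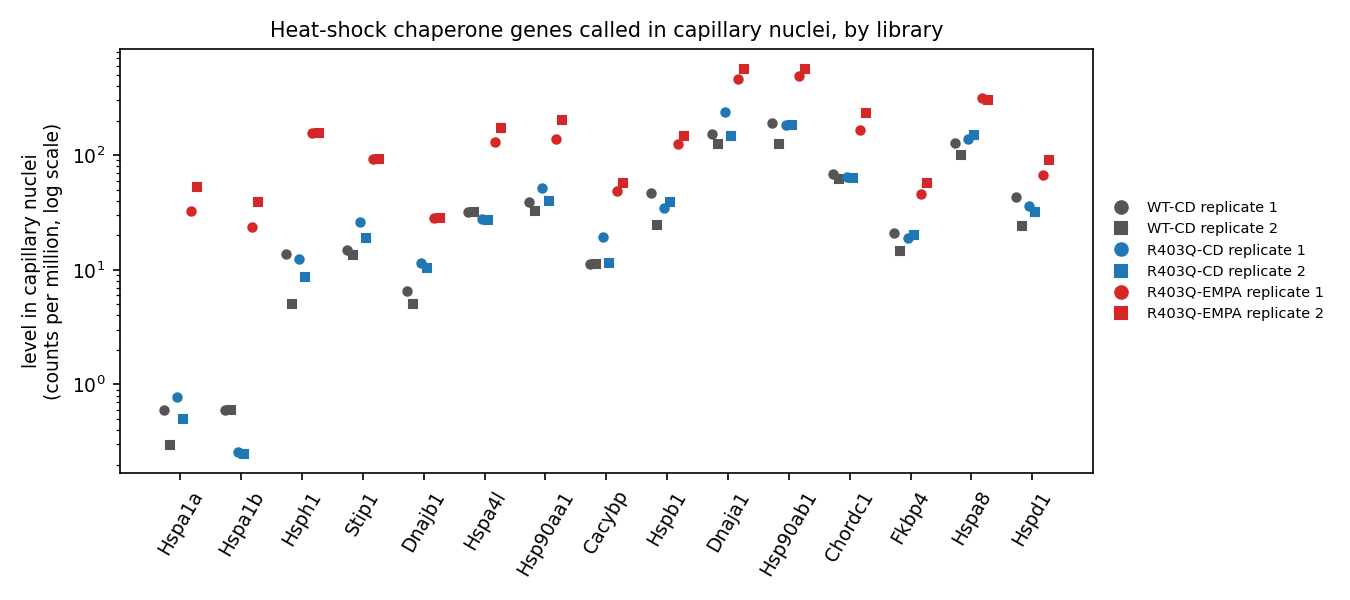
Level of the 15 heat-shock chaperone genes called in either R403Q-EMPA comparison, in CPM on a log axis, with 1 point for the capillary nuclei of each library, circles for replicate 1 and squares for replicate 2. For each gene the 2 R403Q-EMPA libraries lie above the 4 control-diet libraries. The values run from 32.7 and 53.2 CPM against at most 0.776 CPM for Hspa1a to 67.6 and 90.9 CPM against at most 43.6 CPM for Hspd1. The genes were chosen by calls in these same libraries, so this separation was largely built in.

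The higher chaperone level was shared by other classes. After thinning to 1000 UMIs, nuclei with at least 1 UMI of Hspa1a, Hspa1b or Hsph1 made up 1.58% and 0.368% of WT-CD capillary nuclei, 0.773% and 0.949% of those of R403Q-CD, and 17.3% (95% Wilson interval 15.1 to 19.7) and 20.6% (17.6 to 24.0) of those of R403Q-EMPA. Thinning left out 3 to 9 capillary nuclei per library with fewer UMIs. Without it these shares were 3.28% and 1.74%, 3.39% and 3.18%, and 40.6% and 35.3%. In nuclei that were not endothelial the thinned shares were 1.97% to 3.25% in the control-diet libraries and 15.3% and 13.0% in R403Q-EMPA. These shares lay below those of the capillary nuclei of the same R403Q-EMPA libraries, and the part of RNA from outside the nuclei was not tested. In the other endothelial nuclei, where 0.886% and 0.678% of 12980 genes passed against R403Q-CD and WT-CD, 13 chaperone genes rose against each control group, with medians of 1.25 and 1.44. No chaperone's change differed between capillary and other endothelial nuclei in the interaction test (0.0367% and 0.132% of 13642 genes passed it for R403Q-EMPA against R403Q-CD and WT-CD), so no difference in the rise between these classes was detected.

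P4ha1 (ENSMUSG00000019916), a prolyl hydroxylase subunit that matures collagen, rose too. It was at 115 and 117 CPM (WT-CD), 138 and 116 CPM (R403Q-CD) and 476 and 550.3 CPM (R403Q-EMPA) (log2 fold change 2.01, SE 0.15, adjusted p = 0.00011 against R403Q-CD, and log2 fold change 2.14, SE 0.15, adjusted p = 0.00016 against WT-CD). The 2 treated libraries lay far above the other 4, and the calls held in all 15 alternatives run. P4ha1 is in the hypoxia response list, of which 18 genes were tested and 2 rose in both comparisons. The other was Ankrd37, an ankyrin repeat protein induced by hypoxia, at 53.0 and 45.1 CPM in R403Q-EMPA, 21.2 and 23.1 CPM in R403Q-CD and 28.1 and 23.6 CPM in WT-CD (log2 fold change 1.16, SE 0.18, adjusted p = 0.021 against R403Q-CD), a call lost without R403Q-CD replicate 1, R403Q-CD replicate 2 or R403Q-EMPA replicate 1. Its call held in 10 of the 15 alternatives against R403Q-CD but in only 5 against WT-CD, where the log2 fold change (log2 fold change 0.97, SE 0.19, adjusted p = 0.042) went down to 0.41. The list's median was 0.37 against R403Q-CD, with 13 of 18 genes above 0. P4ha1 was also higher with treatment in nuclei that were not endothelial, at 299 and 303 unscaled CPM against 124 to 149 CPM.

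Clock genes moved in both directions. The circadian clock is a loop in which Arntl (Bmal1) drives the transcription of Per, Cry, Nr1d and the output factors Dbp, Tef and Hlf, and the Nr1d proteins repress Arntl. Arntl (ENSMUSG00000055116) was at 7.16 and 5.97 CPM in WT-CD, 9.83 and 9.93 CPM in R403Q-CD, and 32.7 and 45.1 CPM in R403Q-EMPA, and rose against R403Q-CD (log2 fold change 1.93, SE 0.25, adjusted p = 0.0069) and WT-CD (log2 fold change 2.55, SE 0.29, adjusted p = 0.0021). Both treated libraries lay above the other 4, although without R403Q-CD replicate 1 or R403Q-CD replicate 2 the call against R403Q-CD was lost. Tef was at 187 and 172 CPM (WT-CD), 142 and 138 CPM (R403Q-CD) and 83.4 and 68.0 CPM (R403Q-EMPA), and fell against R403Q-CD (log2 fold change -0.87, SE 0.15, adjusted p = 0.033) and WT-CD (log2 fold change -1.22, SE 0.15, adjusted p = 0.0034), with the call against R403Q-CD lost when any 1 library of those 2 groups was left out. Nr1d1, a repressor of Arntl, was at 3.10 and 2.22 CPM in R403Q-EMPA, 12.7 and 12.2 CPM in R403Q-CD and 32.2 and 16.4 CPM in WT-CD and fell against WT-CD (log2 fold change -3.02, SE 0.44, adjusted p = 0.0083).

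Of 18 clock genes tested, 1 rose and 7 fell against WT-CD, with a median log2 fold change of -0.58. The others that fell were Dbp at 59.1 and 29.5 CPM in WT-CD, 16.6 and 17.9 CPM in R403Q-CD, and 8.73 and 5.17 CPM in R403Q-EMPA (log2 fold change -2.48, SE 0.37, adjusted p = 0.0094 against WT-CD), Nr1d2 (-1.19), Hlf (-2.42), Per3 (-0.90) and Rora (-0.73). Levels in R403Q-CD lay between the other groups for Nr1d1, Dbp and Hlf, where no test of R403Q-CD against WT-CD passed. Per1 was at 108 and 110.1 CPM (WT-CD), 88.0 and 109 CPM (R403Q-CD) and 74.7 and 79.8 CPM (R403Q-EMPA) and Ciart at 2.23 to 5.37 CPM, and neither passed a test. Without R403Q-EMPA replicate 1 the calls of Dbp, Hlf, Nr1d1, Per3 and Rora were lost, and without R403Q-EMPA replicate 2 those of Per3 and Rora, and Per3 and Rora were also lost without R403Q-CD replicate 1 or 2 and held in 6 of the 15 alternatives each. The list's summed level in nuclei that were not endothelial was 6363 and 7855 unscaled CPM in WT-CD, 6784 and 5982 CPM in R403Q-CD, and 3775 and 3999 CPM in R403Q-EMPA. The time of day at which tissue was taken is not given in the sources used here, and its part was not tested.

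**Figure D5:**
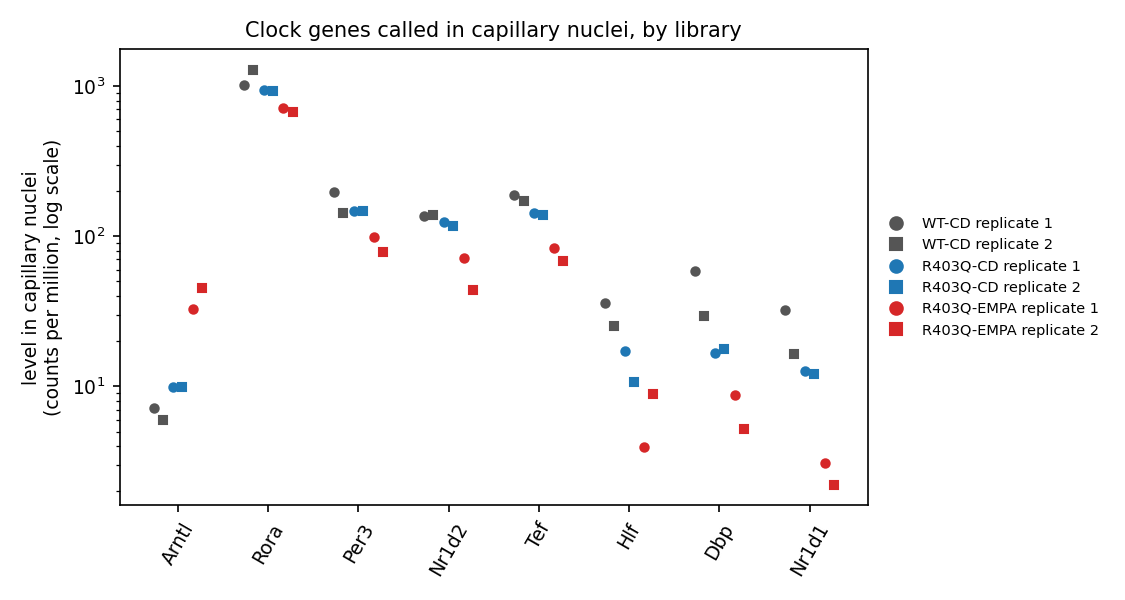
Level of the 8 clock genes called in either R403Q-EMPA comparison, in CPM on a log axis, with 1 point for the capillary nuclei of each library. Arntl is higher in R403Q-EMPA, at 32.7 and 45.1 CPM against 5.97 to 9.93 CPM, and the other 7 genes are lower there than in every control-diet library. The genes were chosen by calls in these same libraries, so this separation was largely built in.

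Other genes that rose with empagliflozin were few in each list. Igfbp5 was at 88.2 and 86.4 CPM in R403Q-EMPA, 19.4 and 30.8 CPM in R403Q-CD and 30.4 and 36.1 CPM in WT-CD (log2 fold change 1.80, SE 0.21, adjusted p = 0.0037 against R403Q-CD). It was among the genes far more abundant in Vegfc/Alk nuclei, where it stood at 928 and 1516 unscaled CPM in R403Q-EMPA against 289.9 to 467 CPM in the control-diet libraries, and its call in capillary nuclei was lost in nuclei without cardiomyocyte UMIs and after thinning, where the log2 fold change was 0.11 (edgeR adjusted p = 0.937). Edn1 was at 5.97 and 6.27 CPM in WT-CD, 3.11 and 7.94 CPM in R403Q-CD, and 32.1 and 17.7 CPM in R403Q-EMPA (log2 fold change 2.23, SE 0.40, adjusted p = 0.041 against R403Q-CD), a call lost without R403Q-EMPA replicate 1, R403Q-CD replicate 1 or R403Q-CD replicate 2, and it was the 1 called member of 19 flow and nitric oxide genes tested. Ier3, an early response gene of survival signalling, was at 28.1 and 17.3 CPM (WT-CD), 15.0 and 15.4 CPM (R403Q-CD) and 43.9 and 32.5 CPM (R403Q-EMPA) (log2 fold change 1.37, SE 0.25, adjusted p = 0.044), a call lost without the same 3 libraries. Dkk2, a secreted Wnt modulator of arteries, had 33 UMIs in R403Q-EMPA and none in R403Q-CD. Its level was at least 18.0-fold higher against 3 counts over the R403Q-CD group. The call of Dkk2 against R403Q-CD was lost when any 1 library of those 2 groups was left out. Of 13 arterial markers tested, Dkk2 was the 1 called against R403Q-CD, 10 had a log2 fold change above 0 there (median 0.30) and 12 against WT-CD (median 0.46). The list's summed unscaled level in capillary nuclei, which overlapped between groups, was 3355 and 4373 CPM in WT-CD, 3509 and 4099 CPM in R403Q-CD and 4318 and 3650 CPM in R403Q-EMPA, whose replicate 1 also held the 637 Sox17/Cxcl12 nuclei. The part of arterial nuclei in these rises was not tested. The predicted gene Gm10069 was at 28.2 and 26.6 CPM in R403Q-EMPA, 6.73 and 4.96 CPM in R403Q-CD and 5.37 and 7.46 CPM in WT-CD (log2 fold change 2.23, SE 0.29, adjusted p = 0.0069), a call lost without R403Q-CD replicate 2 or R403Q-EMPA replicate 1. Of the alternatives in which each gene could be tested, the calls held in 8 of 14 for Edn1, 9 of 14 for Ier3, 6 of 12 for Dkk2 and 11 of 14 for Gm10069.

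Genes that fell against R403Q-CD included antigen presentation and immune genes. Sidt1 (ENSMUSG00000022696), a transmembrane protein of RNA and cholesterol transport, was at 37.6 and 43.0 CPM in WT-CD, 46.3 and 46.2 CPM in R403Q-CD, and 9.02 and 11.8 CPM in R403Q-EMPA (log2 fold change -2.21, SE 0.21, adjusted p = 0.00078 against R403Q-CD, and log2 fold change -2.03, SE 0.22, adjusted p = 0.0019 against WT-CD), with both treated libraries below the other 4. The call against R403Q-CD was lost in nuclei without cardiomyocyte UMIs, at a log2 fold change of -1.64, within a range of -2.36 to -1.64 over the 15 alternatives. Cd247, the zeta chain of the T cell receptor complex, was at 84.8 and 71.6 CPM (WT-CD), 58.5 and 66.8 CPM (R403Q-CD) and 3.94 and 20.7 CPM (R403Q-EMPA) (log2 fold change -2.74, SE 0.43, adjusted p = 0.021 against R403Q-CD), lost without R403Q-CD replicate 1, R403Q-CD replicate 2 or R403Q-EMPA replicate 1. Its unscaled level was 10.9 to 16.3 CPM in Vegfc/Alk nuclei and 4.93 to 11.8 CPM in nuclei that were not endothelial of the control-diet libraries, below the 57.7 to 88.5 CPM of capillary nuclei. Pde8b, a phosphodiesterase of cyclic AMP, was at 0.845 and 2.22 CPM in R403Q-EMPA, 14.2 and 13.2 CPM in R403Q-CD and 6.57 and 3.88 CPM in WT-CD (log2 fold change -3.41, SE 0.52, adjusted p = 0.017), and the predicted gene Gm36660 at 56.1 and 74.9 CPM in WT-CD, 76.6 and 70.7 CPM in R403Q-CD, and 27.9 and 31.8 CPM in R403Q-EMPA (log2 fold change -1.33, SE 0.19, adjusted p = 0.013). Both calls were lost without R403Q-CD replicate 1, R403Q-CD replicate 2 or R403Q-EMPA replicate 1. The calls held in 11 of 15 alternatives for Cd247, 10 of 15 for Gm36660, and 7 of the 13 in which it could be tested for Pde8b.

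Of 30 interferon and MHC class I genes tested, 4 fell against R403Q-CD and the list's median was -0.01. Nlrc5, the transactivator of MHC class I genes, was at 19.7 and 41.2 CPM (WT-CD), 24.3 and 44.9 CPM (R403Q-CD) and 5.35 and 2.95 CPM (R403Q-EMPA) (log2 fold change -2.90, SE 0.47, adjusted p = 0.023 against R403Q-CD). H2-Q4, a non-classical MHC class I gene, was at 32.7 and 28.1 CPM in R403Q-EMPA, 65.2 and 103 CPM in R403Q-CD and 59.1 and 59.98 CPM in WT-CD (log2 fold change -1.45, SE 0.23, adjusted p = 0.021). H2-Q6 and H2-Q7 are near-identical, so their reads can be split between them. H2-Q6 was at 14.9 and 10.4 CPM in WT-CD, 17.9 and 58.3 CPM in R403Q-CD, and 3.38 and 2.95 CPM in R403Q-EMPA (log2 fold change -3.54, SE 0.61, adjusted p = 0.033) and H2-Q7 at 28.1 and 16.7 CPM (WT-CD), 32.9 and 110.4 CPM (R403Q-CD) and 5.92 and 4.43 CPM (R403Q-EMPA) (log2 fold change -3.71, SE 0.60, adjusted p = 0.023), and R403Q-CD replicate 2 stood far above every other library for both. The calls of all 4 genes were lost without R403Q-EMPA replicate 1, those of Nlrc5, H2-Q4 and H2-Q6 without R403Q-CD replicate 2, and that of H2-Q6 without R403Q-EMPA replicate 2. The same number of genes of the list, 4, fell in other endothelial nuclei.

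Against WT-CD, several genes passed whose mean in R403Q-CD stood in between. Sgk1, a kinase induced by glucocorticoids, was at 183 and 154 CPM in R403Q-EMPA, 138 and 154 CPM in R403Q-CD and 97.3 and 103 CPM in WT-CD (log2 fold change 0.76, SE 0.15, adjusted p = 0.039 for R403Q-EMPA against WT-CD). Pdk4, the kinase that shuts pyruvate dehydrogenase, was at 4.18 and 3.58 CPM in WT-CD, 11.1 and 10.2 CPM in R403Q-CD, and 14.6 and 14.8 CPM in R403Q-EMPA (log2 fold change 1.94, SE 0.35, adjusted p = 0.027), and Cdkn1a, the cell cycle inhibitor p21, at 10.1 and 20.3 CPM (WT-CD), 19.4 and 23.3 CPM (R403Q-CD) and 45.1 and 77.6 CPM (R403Q-EMPA) (log2 fold change 1.85, SE 0.32, adjusted p = 0.021). These were 3 of the 16 glucocorticoid response genes tested. Fkbp5 and Txnip, which respond to glucocorticoids or glucose, did not pass, at adjusted p of 0.41 and 0.43. Btnl9 was at 473 and 355 CPM in R403Q-EMPA, 363 and 352 CPM in R403Q-CD and 232 and 248 CPM in WT-CD (log2 fold change 0.79, SE 0.16, adjusted p = 0.04). The calls of Sgk1, Btnl9 and Cdkn1a were lost in nuclei without cardiomyocyte UMIs, those of Sgk1, Btnl9 and Pdk4 without R403Q-EMPA replicate 1, those of Sgk1 and Btnl9 without either R403Q-CD library, and that of Pdk4 without WT-CD replicate 2. Those of Sgk1 and Btnl9 held in 8 of 15 alternatives each, and that of Pdk4 in 8 of the 14 in which it could be tested.

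Cyp26b1 fell against WT-CD (log2 fold change -2.94, SE 0.36, adjusted p = 0.0034), a call lost without R403Q-EMPA replicate 1 and in nuclei without cardiomyocyte UMIs, where the log2 fold change was -1.51 (edgeR adjusted p = 0.619). In Vegfc/Alk nuclei it stood at 172 and 86.7 CPM in WT-CD, 32.6 and 64.6 CPM in R403Q-CD, and 13.1 and 32.7 CPM in R403Q-EMPA without scaling, so the levels of the mutant libraries lay below both WT-CD libraries there too. Abca8a, a lipid transporter, Rgs17, a regulator of G protein signalling, Nkain2, a membrane protein that interacts with the sodium pump, and Bank1, a B cell scaffold protein, fell by 1.77, 2.56, 3.08 and 2.90 on the log2 scale. Abca8a is a fibroblast marker and Bank1 an immune marker of the lists, whose sums were lower in R403Q-EMPA than in WT-CD. All 4 calls were lost without R403Q-EMPA replicate 1, those of Rgs17 and Bank1 also without WT-CD replicate 2, that of Rgs17 without either R403Q-CD library, and that of Bank1, which had no UMI there, without R403Q-EMPA replicate 2. They held in 9 of 15 alternatives for Abca8a, and of the 14 in which the others could be tested, in 6 for Rgs17, 10 for Nkain2 and 7 for Bank1.

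The natriuretic peptide genes, which cardiomyocytes transcribe under load, passed against WT-CD in the capillary nuclei. Nppa was at 15.5 and 10.7 CPM (WT-CD), 65.2 and 57.1 CPM (R403Q-CD) and 450.5 and 74.6 CPM (R403Q-EMPA) (log2 fold change 4.44, SE 0.68, adjusted p = 0.011), and R403Q-EMPA replicate 1 stood far above R403Q-EMPA replicate 2. Without that library the log2 fold change was 2.56. Nppb, at 4 UMIs in WT-CD and 49 in R403Q-EMPA, had a ratio of CPM of 12.7 (95% counting interval 4.65 to 48.4), and its call was lost without WT-CD replicate 2 or either R403Q-EMPA library. In nuclei that were not endothelial Nppa was at 927 and 224 CPM in R403Q-EMPA, 90.0 and 121 CPM in R403Q-CD and 30.0 and 17.5 CPM in WT-CD without scaling, with R403Q-EMPA replicate 1 again the highest, and the part of cardiomyocyte RNA was not tested beyond the value without cardiomyocyte UMIs, where Nppa kept its call.

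Cell cycle genes were low and had positive fold changes against WT-CD. Of 19 tested, 19 had a log2 fold change above 0 for R403Q-EMPA against WT-CD, with a median of 1.65 against 0.0109 over all genes, and 1 was called. This was Diaph3, a formin of cytokinesis, at 15.5 and 23.0 CPM in WT-CD, 40.1 and 23.8 CPM in R403Q-CD, and 50.1 and 56.1 CPM in R403Q-EMPA (log2 fold change 1.39, SE 0.28, adjusted p = 0.04), a call lost without either R403Q-EMPA library and after thinning. Kif23, a kinesin of cytokinesis that the list did not hold, was at 5.97 and 7.16 CPM (WT-CD), 17.1 and 9.18 CPM (R403Q-CD) and 32.4 and 44.3 CPM (R403Q-EMPA) (log2 fold change 2.47, SE 0.35, adjusted p = 0.0077), a call lost after thinning. The list summed to 189 and 140.0 unscaled CPM in WT-CD, 333 and 173 CPM in R403Q-CD, and 364 and 585 CPM in R403Q-EMPA. Thinned nuclei with at least 3 UMIs of the list made up 1.11% and 0.919% of WT-CD, 1.55% and 0.863% of R403Q-CD and 1.86% and 1.96% of R403Q-EMPA capillary nuclei. Before thinning these shares were 2.5% and 1.74%, 3.00% and 2.41%, and 3.89% and 2.44%.

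Of 17 capillary markers tested, 2 rose against WT-CD in R403Q-EMPA, Btnl9 and Sgk1, and none passed in the other comparisons. The other genes of capillary function named here passed no test. Cd36 was at 2733 and 3055 CPM in R403Q-EMPA, 2508 and 2764 CPM in R403Q-CD and 2113 and 2378 CPM in WT-CD and Fabp4 at 1714 and 997 CPM in WT-CD, 1307 and 1610.4 CPM in R403Q-CD, and 1853 and 1688 CPM in R403Q-EMPA. Lpl was at 1053 and 1295 CPM (WT-CD), 1286 and 1691 CPM (R403Q-CD) and 1244 and 1474 CPM (R403Q-EMPA), with adjusted p of 1, 0.89 and 0.68 in the 3 comparisons. Kdr was at 574 and 533 CPM in R403Q-EMPA, 614 and 553 CPM in R403Q-CD and 615 and 462 CPM in WT-CD, and Col4a1 at 850.0 and 639.5 CPM in WT-CD, 781 and 693 CPM in R403Q-CD, and 1234 and 1068 CPM in R403Q-EMPA, where both R403Q-EMPA libraries lay above the other 4 without passing (adjusted p = 0.17 against R403Q-CD). Gpihbp1 lay between 220.2 and 366 CPM, Aqp1, the water channel, between 281 and 837 CPM, Rgcc, a cell cycle regulator of capillary endothelium, between 204 and 382 CPM, and Notch1 between 139.7 and 214 CPM over the 6 libraries. Aplnr, the apelin receptor, lay between 44.2 and 114 CPM, Insr, the insulin receptor, between 100.2 and 187 CPM, and Tcf15, a partner of Meox2 in heart capillaries, between 88.2 and 165 CPM. Plvap, which forms the diaphragms of fenestrated endothelium, was low, at 0.776 to 6.20 CPM. Meox2, at 315 and 329 CPM (WT-CD), 267 and 271 CPM (R403Q-CD) and 217 and 219 CPM (R403Q-EMPA), fell short of the threshold for R403Q-EMPA against WT-CD at an adjusted p of 0.067, with no overlap between those libraries. Of the 30 genes fixed to be named whatever their result, only Hspa1a, Hspa1b and Pdk4 passed a test. No gene passed in any of the 3 comparisons in the lists of pan-endothelial genes (16 tested), fatty acid uptake and handling (22), VEGF and angiopoietin (16), Notch (18), BMP and TGF-beta (25), adhesion and inflammatory activation (16), basement membrane and integrins (25), sodium and proton transport (13) or mitochondrially encoded genes (13). A list without calls does not show that its genes were the same in the groups.

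Few changes differed between the capillary and the other endothelial nuclei of the same libraries. The mix of those others differed between libraries. Vegfc/Alk, Sox17/Cxcl12 and unassigned nuclei numbered 834, 637 and 588 in R403Q-EMPA replicate 1 and 418, 99 and 303 in R403Q-EMPA replicate 2. In the control-diet libraries they numbered 578 to 947, 101 to 138 and 229 to 316. The part of this mix in the interaction calls was not tested. The interaction test of 13642 genes called 3 genes for R403Q-CD against WT-CD (0.022%), the globins Hbb-bs, Hba-a1 and Hba-a2. It called 5 for R403Q-EMPA against R403Q-CD and 18 for R403Q-EMPA against WT-CD, and in nuclei without cardiomyocyte UMIs 0, 0 and 2. With Ablim3 left out of the selection none of the 3, none of the 5 (Pcdh9 and Ltbp1 included) and 1 of the 18 calls remained, and after thinning none, 4 and 4 remained. With single libraries left out the counts of calls ran from 1 to 5, 3 to 46 and 5 to 56. Pcdh9, a protocadherin, fell in capillary nuclei, at 24.2 and 23.6 CPM in R403Q-EMPA, 55.6 and 63.3 CPM in R403Q-CD and 96.7 and 85.9 CPM in WT-CD (log2 fold change -1.31, SE 0.18, adjusted p = 0.0087 against R403Q-CD), while in the other endothelial nuclei it was at 135 and 107 CPM in WT-CD, 79.4 and 105 CPM in R403Q-CD, and 78.0 and 124 CPM in R403Q-EMPA without scaling, with a difference of -1.28 on the log2 scale (SE 0.20, adjusted p = 0.025). Ltbp1, which binds latent TGF-beta, was at 171 and 225 CPM (WT-CD), 202 and 176 CPM (R403Q-CD) and 113 and 117 CPM (R403Q-EMPA) in capillary nuclei and at 328 and 323 CPM in R403Q-EMPA, 235 and 253 CPM in R403Q-CD and 258 and 228 CPM in WT-CD in the others, with a difference of -1.12 on the log2 scale (SE 0.15, adjusted p = 0.0054). In nuclei that were not endothelial Pcdh9 stood higher, at 526 to 1192 CPM, and the part of RNA from those cells was not tested.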

How the data were processed

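Single-nucleus RNA sequencing libraries (10x Genomics) had been made from left ventricle of 6 samples, 2 in each of 3 groups. The deposited files hold UMI counts per gene and barcode, which per the labels the authors made with Cell Ranger 8.0.1 on build GRCm39. The annotation and the treatment of intronic reads are not given in the sources used here. A barcode was kept if it held 500 UMIs or more, 300 genes or more and no more than 5% mitochondrial UMIs, which left 48438 of 69249. Samples were grouped by the labels. Replicate numbers follow accession order and pair nothing.

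UMIs of the capillary nuclei were summed per library and tested with edgeR 4.0.16 (quasi-likelihood, TMM factors of 0.972 to 1.05, filterByExpr, all 6 libraries in 1 fit) under R 4.3.3, with Benjamini-Hochberg adjustment over all genes and a threshold of 0.05. CPM given for capillary nuclei are TMM-scaled unless called unscaled, and levels of other classes and list sums are unscaled. TMM and size-factor scaling call the middle of all genes unchanged. Replicates differed by more than sampling noise, with a chi-square of 2.52 to 6.11 per degree of freedom. Shares were compared by two-sided exact permutation tests. The interaction was fitted with each library as a block. Intervals cover counting error only. Alternatives were DESeq2 1.42.0, relative log expression factors, no filter, removal of doublets predicted by scrublet (scanpy 1.11.5), a sum of at least 3 UMIs, thinning to 1000 UMIs, nuclei without cardiomyocyte UMIs, only the 2 groups compared and leaving out each library. Doublets otherwise stayed in.

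The genes named were those of the compared sums and the pan-endothelial genes of the selection, as description, and 30 genes named whatever their result. To these came the 8 largest changes in each direction among called genes without overlap of libraries (the 8 smallest p where fewer than 8 were called). Called list members and 6 interaction calls per comparison were named too. So were the 12 highest and 12 lowest genes against each other class with a mean of at least 20 CPM in either. The text describes those with the clearest values and counts the rest. The members and the 29 lists were chosen with earlier results of these data known. Promoter sequences are from RefSeq, build GRCm38.p6, and were matched by symbol for 9759 of the tested genes. Genome coordinates of GRCm39 were not used here.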

Additional observations from a re-analysis of the deposited data

Results flagged for a closer look

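Some changes differed between capillary nuclei and the other endothelial nuclei of the same libraries by the interaction test, with values as the log2 change in capillary nuclei less that in the others. For R403Q-CD against WT-CD these were Hbb-bs (1.14), Hba-a1 (1.04) and Hba-a2 (0.96), where the other nuclei changed by 0.20, 0.38 and 0.36. These 3 calls were lost after thinning, in nuclei without cardiomyocyte UMIs and with Ablim3 left out of the selection.

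For R403Q-EMPA against R403Q-CD they were Lsamp (-3.81), Ccdc141 (-1.90), Ltbp1 (-1.12), Iigp1 (1.01) and Pcdh9 (-1.28). Lsamp, a neural adhesion molecule, was at 16.5 to 108 unscaled CPM in capillary nuclei, and in the other endothelial nuclei at 449 and 265 CPM in R403Q-EMPA against 47.7 to 166 CPM in the control-diet libraries. In Vegfc/Alk nuclei Lsamp was at 13.7 to 51.8 CPM, so its high level lay in the remaining endothelial nuclei. Ccdc141 was at 175 and 195 CPM in the other endothelial nuclei of R403Q-EMPA against 40.0 to 46.3 CPM in the control-diet libraries. None of these 5 calls remained with Ablim3 left out of the selection or in nuclei without cardiomyocyte UMIs. Iigp1, an interferon-induced GTPase, changed by -2.08 in the others and by -1.04 in capillary nuclei.

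For R403Q-EMPA against WT-CD the 6 with the smallest p were Lsamp (-3.76), Sgcd (-1.36), Ltbp1 (-1.24), Pkhd1l1 (-1.36), Pcdh9 (-1.54) and Ccdc141 (-1.76). Lsamp and Ccdc141 stood at 284 to 775 and 450.1 to 640.05 CPM in nuclei that were not endothelial. The part of RNA from those cells, and that of the differing mix of other endothelial nuclei, was not tested.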

How the results depend on the processing

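Of 81 named gene results, 21 kept their direction and side of the threshold in every alternative run, and Sgcd for R403Q-CD against WT-CD reversed to 0.0248 without predicted doublets. Without filterByExpr the counts of called genes became 68 for R403Q-CD against WT-CD, 379 for R403Q-EMPA against R403Q-CD and 648 for its comparison with WT-CD, and with only the 2 groups compared 1, 198 and 74. For R403Q-CD against WT-CD DESeq2 called 6. Nuclei without cardiomyocyte UMIs gave 20 and 43 for the R403Q-EMPA comparisons, and against WT-CD thinning gave 96 and leaving Ablim3 out, chosen after seeing the data, gave 55. Leaving out single libraries gave 0 to 19, 10 to 223 and 50 to 427. Interaction counts in the same order were 29, 109 and 156 without the filter, 0, 0 and 2 without cardiomyocyte UMIs, 0 and 20 after thinning for R403Q-CD against WT-CD and R403Q-EMPA against R403Q-CD, 1 without Ablim3 for R403Q-CD against WT-CD, 5 without Ablim3 and 7 without doublets for R403Q-EMPA against WT-CD, and 1 to 5, 3 to 46 and 5 to 56 without single libraries. The cause of these shifts was not tested, beyond the fewer nuclei or libraries of most alternatives.

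Capillary shares of endothelial nuclei differed by 10.2 to 20.03, -20.9 to -12.5 and -6.54 to 3.32 points without single libraries, and shares of all nuclei by 2.56 to 9.86, -7.06 to -3.03 and -2.49 to 4.81. The difference of R403Q-EMPA from WT-CD reversed to 2.59 without R403Q-EMPA replicate 1, 3.32 without WT-CD replicate 2 and 0.175 without cardiomyocyte UMIs for endothelial nuclei, and to -0.851 without R403Q-EMPA replicate 1, -2.49 without WT-CD replicate 1 and -0.302 without Ablim3 for all nuclei. No paired analysis was possible because the labels give no replicate numbers that link libraries of different groups. With 2 libraries a group and as few as 614 nuclei in a library, genes of a few CPM rest on few UMIs, and an uncalled gene is not shown to be equal.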

Other observations

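Capillary nuclei also differed from Vegfc/Alk nuclei in other lists. Of 11 adhesion and inflammatory activation genes that could be compared, 7 were lower in capillary nuclei in all 6 libraries and none higher, with a median mean log2 ratio of -0.64. Of 10 immediate early genes, 7 were lower and 1 higher, and of 9 sodium and proton transport genes 6 were lower and 2 higher. Il1r1, the interleukin 1 receptor, was at 52.4 to 77.1 CPM in capillary nuclei against 248 to 390 CPM, with ratios of -2.52 to -1.88. These values are descriptions, since the classes were cut from the same nuclei.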
